A study of Mus musculus with 18 samples.

Results

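The library of a pooled CRISPR knockout screen held 252 sgRNAs, and 24 of them target 8 genes whose known work lies in tissues other than B cells. These genes are Foxi1, Defb1 and S100a7a of epithelia, Jph3, Kcnip1 and Mag of excitable cells and their myelin, Sycp2 of meiosis and Hoxa3 of embryo patterning. The sgRNAs were chosen by the gene named in the deposited count table, with 3 sgRNAs for each of the 8 genes out of 76 targeted genes. They were compared with the 24 non-targeting sgRNAs of the same library and, as background, with the 204 sgRNAs against the other 68 genes. The grouping rests on what the genes are known for. The labels list all 76 genes as linked to cell death, and only sgRNA cassettes from genomic DNA were read, so expression of the 8 genes in these cells was not tested.

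The screen used Ba/F3, a mouse pro-B line that depends on interleukin-3, in a derivative that the labels name sensBa/F3. ITPK1-WT cells keep the inositol phosphate kinase ITPK1, and ITPK1-KO cells are a pool of 6 clones that lost it. Each background was transduced with the library as a single pool and cultured for 10 days. The WT cells were stained with CellTrace violet and the KO cells with CellTrace yellow, so the dye is tied to the genotype. An equal mixture was injected into the peritoneum of 8 hCD89-transgenic mice, which carry the human receptor for IgA. Mice 1 to 4 then received PBS (vehicle) and mice 5 to 8 received anti-hHer2 IgA, with the arm of each mouse taken from the deposited legend. Viable cells were recovered after 16 h and sorted by dye into 16 libraries, 8 per background, and each background was also read before injection. The sources used here give no age for the mice.

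A sgRNA directs Cas9 to a matching stretch of DNA, where the enzyme makes a double-strand break. A sgRNA against a gene that a cell does not use still makes this break, whereas a non-targeting sgRNA makes none, and both kinds serve as controls in knockout screens. A sgRNA's share of the reads follows the share of living cells that carry it, so a loss under treatment in one sgRNA raises the shares of others. Of the targets, FOXI1 is a forkhead transcription factor of ionocytes, beta-defensin 1 is an antimicrobial peptide, and S100A7A is a calcium-binding protein of the epidermis. JPH3 is a junctophilin that ties the plasma membrane of neurons to the endoplasmic reticulum, KCNIP1 is a calcium-sensing partner of Kv4 potassium channels, and MAG is the myelin-associated glycoprotein. SYCP2 builds the lateral elements of the synaptonemal complex in meiosis, and HOXA3 is a homeobox factor of the pharyngeal region.

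The sgRNAs of a gene are shown together because those against the same gene often differed in behaviour. Capitals mark the 12 bases next to the PAM, the seed that tolerates mismatches least. The epithelial genes are targeted by the first 9, of which Foxi1 sg-1 had the largest IgA change of the set in ITPK1-WT cells and Foxi1 sg-3 the lowest abundance.
Foxi1 sg-1: tagtaaagATTCATCTCCGG
Foxi1 sg-2: ttgacaacGGAAACTTTCGC
Foxi1 sg-3: ggcgctggTCGGGCGCACCG
Defb1 sg-1: aaagaaaaCATATCATCACC
Defb1 sg-2: aagcttacCTGGCTCCATCT
Defb1 sg-3: tacaaatgCCTTCAACATGG
S100a7a sg-1: gcctcgctTCATGGACACCT
S100a7a sg-2: ccgggcagCTGACAAAAACA
S100a7a sg-3: cttcccggGCAGCATAGTGA

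The sgRNAs against neuronal and myelin genes include Kcnip1 sg-1, which passed the test in both backgrounds.
Jph3 sg-1: caggggcgAACGGATGACTG
Jph3 sg-2: gcaacggaGCCAAATACGAA
Jph3 sg-3: aagcagaaCGTGCTCGTGAG
Kcnip1 sg-1: cagtccatGAAAAACTAAGG
Kcnip1 sg-2: gaactgcaAGTCTTGTACCG
Kcnip1 sg-3: acagagtgCTTACCTTTAGA
Mag sg-1: gggacttgAAGACCACCGGT
Mag sg-2: ggaggcaaATACTATTTCCG
Mag sg-3: ctgactctCATAGATGACCG

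The meiotic and patterning targets hold Sycp2 sg-2, with the largest IgA change in ITPK1-KO cells, and Hoxa3 sg-1, which fell in both backgrounds.
Sycp2 sg-1: agtgacacTGAAACCGAATG
Sycp2 sg-2: ggaataatAGAGCCAACGTA
Sycp2 sg-3: cttgtaaaCCCTCTAGAACT
Hoxa3 sg-1: tcgatggtACTCAACGCCAT
Hoxa3 sg-2: acttcaacCGCTACCTATGC
Hoxa3 sg-3: aagtacaaGAAAGACCAGAA

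All 24 sequences have 20 bases, and none holds TTTT, the run that ends transcription by RNA polymerase III. Their GC content ran from 30% (Defb1 sg-1) to 85% (Foxi1 sg-3) with a median of 50%, against 40% to 70% with a median of 55% for the non-targeting sgRNAs. The files name no genome build, so positions of the target sites are not given. All 8 genes were found in RefSeq's GRCm38.p6 annotation, used for names and neighbours. There Foxi1 and Kcnip1 lie close together, with Lcp2 as the protein-coding gene between them, S100a7a lies between S100a6 and S100a8, and Mag lies beside Cd22.

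Read totals ran from 317564 to 808586 over the 18 libraries. The 24 sgRNAs against these genes had 450 to 5349 reads each in any library, and none of their 432 counts was 0. They were therefore measured well above the filter on low counts (a mean of at least 10 reads), which all 24 passed. All vehicle libraries came from 2000000 sorted cells. In IgA mice 5 to 8, 1200000, 2000000, 1000000 and 657000 ITPK1-WT cells and 1670000, 2000000, 1500000 and 955000 ITPK1-KO cells were sorted, so mouse 6 alone of the IgA mice matched the vehicle mice in this number. The part of the cell number in the results was not tested. The read-file numbers in the labels fall into a pair of series, taken here as sequencing sample sheets, with mice 1 to 5 on the first. The other held mice 6 to 8 together with both starting libraries. All mice received cells of the same pool, so p-values measure the spread between mice and not between transductions.

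Before injection, most sgRNAs against these genes were scarcer than the non-targeting ones. On the log2 scale, with the median non-targeting sgRNA of each library set to 0, their median level was −0.46 in the WT pool and −0.31 in the KO pool, and 20 and 18 of the 24 lay below 0. The sgRNAs against the other 68 genes had medians of −0.55 and −0.47. These are single libraries, without replicates, and the abundance of each sgRNA in the plasmid pool was not used here. The genes differed widely. Summed over its sgRNAs, Jph3 reached 98.9% (WT) and 98.3% (KO) of what 3 non-targeting sgRNAs had on average. Hoxa3 (92.5% and 95.0%), S100a7a (92.1% and 93.0%) and Defb1 (86.6% and 89.8%) were also close to it. Sycp2 stood at 64.2% and 72.3% and Kcnip1 at 64.0% and 66.7%, while Mag (51.9% and 54.4%) and Foxi1 (49.1% and 53.6%) were lowest. Within Foxi1 the levels were far apart. Foxi1 sg-3, the most GC-rich member, had 754 of 562263 reads in ITPK1-WT cells, a share of 0.134% with an exact 95% binomial interval of 0.125% to 0.144%, which is 23.1% of the non-targeting median. Foxi1 sg-2 in the same library had a share of 0.459% (0.442% to 0.477%). PCR reads without molecular identifiers are not independent molecules, so these intervals cover counting error only.

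The first comparison asked whether IgA treatment changed the share of these sgRNAs in ITPK1-WT cells. Of the 24, 9 passed at an adjusted p below 0.05 in edgeR's quasi-likelihood test (n = 4 mice per arm), 5 higher and 4 lower in IgA mice. In the same test 27.8% of all 252 sgRNAs passed, 13.9% in each direction, as did 9 of the 24 non-targeting sgRNAs, of which 1 was higher and 8 lower. The median log2 fold change (IgA over vehicle) was 0.032 for the 24 sgRNAs, −0.059 for the non-targeting ones and 0.00090 for the sgRNAs against other genes. The changes of the 24 were small, between −0.12 and 0.19 on the log2 scale. Non-targeting sgRNAs ranged from −0.21 to 0.16, and the 204 sgRNAs against other genes from −0.60 to 0.66. With libraries scaled within this background, the arms did not overlap for 4 of the 24 (Defb1 sg-1, Hoxa3 sg-1, Jph3 sg-3 and Mag sg-1), against 23.4% of all sgRNAs. Values per mouse below are CPM, read counts scaled to a common library size by TMM over the 16 recovered libraries, given in the order of the mouse numbers.

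Among the epithelial targets, Foxi1 sg-1 rose most. It had 2680, 2960, 2731 and 2839 CPM in ITPK1-WT cells of the vehicle mice and 3416, 2927, 3315 and 3242 CPM in the IgA mice. All IgA mice except mouse 6 were above every vehicle mouse, and the log2 fold change was 0.19 (SE 0.057, adjusted p = 0.00169 by edgeR). Foxi1 sg-2 moved the other way, from 4847, 4578, 4617 and 4689 CPM to 4364, 4650, 4466 and 4167 CPM, with a log2 fold change of −0.086 (SE 0.038, adjusted p = 0.0464 by edgeR) and arms that overlapped through mouse 6. Foxi1 was thus called in both directions by different sgRNAs, which held for 1 of the 8 genes and for 2 of the other 68. Foxi1 sg-3 had a log2 fold change of 0.13 (SE 0.066) and did not pass.

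Defb1 sg-1 had 3631, 3541, 3473 and 3443 CPM in vehicle mice and 3937, 3978, 4179 and 3712 CPM in IgA mice. The arms did not overlap, and the log2 fold change was 0.16 (SE 0.038, adjusted p = 0.00135 by edgeR). The other Defb1 sgRNAs, sg-2 at −0.063 and sg-3 at −0.0015, did not pass. S100a7a sg-1, an abundant sgRNA, had 7162, 6533, 6874 and 6930 CPM in vehicle mice and 6525, 6589, 6584 and 6056 CPM in IgA mice. It fell by 0.097 on the log2 scale (SE 0.039, adjusted p = 0.0156 by edgeR), and mouse 2 of the vehicle arm lay within the range of the IgA arm. The other S100a7a sgRNAs had log2 fold changes of 0.0060 and 0.033 and did not pass.

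Among the neuronal targets, Kcnip1 sg-1 had 3458, 3429, 3361 and 3370 CPM in vehicle mice and 3708, 3445, 3819 and 3891 CPM in IgA mice. Only mouse 6 lay within the vehicle range, and the log2 fold change was 0.12 (SE 0.039, adjusted p = 0.0258 by edgeR). Its companions sg-2 (0.032) and sg-3 (0.076) had the same sign and did not pass. Jph3 sg-3 had 5071, 5025, 5085 and 5078 CPM in vehicle mice, and 4823, 5032, 4526 and 4681 CPM in IgA mice. Its log2 fold change was −0.088 (SE 0.033, adjusted p = 0.0266 by edgeR), and mouse 6 lay between the vehicle values on this scale, though not with the ITPK1-WT libraries scaled on their own. The 3 sgRNAs against the myelin gene Mag did not pass, with log2 fold changes of 0.10, 0.051 and −0.083.

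Of the meiotic gene Sycp2, a pair of sgRNAs passed as higher, while Sycp2 sg-1 (0.062) did not pass. More than 1 sgRNA was called in the same direction for 1 of the 8 genes and for 10 of the other 68. Sycp2 sg-2 went from 3417, 3622, 3241 and 3450 CPM to 3650, 3444, 3903 and 3926 CPM, with a log2 fold change of 0.11 (SE 0.055, adjusted p = 0.0432 by edgeR). Sycp2 sg-3 went from 4305, 4517, 4332 and 4551 CPM to 4805, 4406, 4892 and 5076 CPM, with a log2 fold change of 0.11 (SE 0.047, adjusted p = 0.0156 by edgeR). In both, mouse 6 lay among the vehicle mice and the other IgA mice above all of them. Hoxa3 sg-1, against the patterning gene, had 5956, 5767, 5843 and 5631 CPM in vehicle mice and 5407, 5622, 5144 and 5131 CPM in IgA mice. Its arms did not overlap, and it fell by 0.12 on the log2 scale (SE 0.036, adjusted p = 0.00189 by edgeR). Hoxa3 sg-2 (−0.026) and sg-3 (0.073) did not pass.

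The number of calls depended on single mice of both arms, in the whole library as in the 24. Without mouse 8, 3 of the 24 sgRNAs passed, against 19% of all sgRNAs in the same fit. Without mouse 1, 3 or 7 there were 4, against 19%, 21.4% and 17.9%. Without mouse 6 there were 11 against 37.3%, where the fit with all mice had 9 against 27.8%. The calls of Foxi1 sg-1, Defb1 sg-1 and Hoxa3 sg-1 held in all 8 fits that left out a mouse. Foxi1 sg-2 kept its call only without mouse 2 or 6 (adjusted p up to 0.227 in the other fits), and it lost it under DESeq2 as well. Jph3 sg-3 and Sycp2 sg-3 lost theirs without mouse 1, 3, 7 or 8 (up to 0.173 and 0.102), Kcnip1 sg-1 without 3, 4, 7 or 8 (up to 0.118), Sycp2 sg-2 without 1, 3, 4, 7 or 8 (up to 0.192), and S100a7a sg-1 without 1 or 8 (up to 0.129), all by edgeR.

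Measured against the non-targeting sgRNAs, the downward calls were lost. With the libraries scaled to the sum of the 24 non-targeting sgRNAs, 9 of the 24 passed and all 9 were higher in IgA mice, against 30.2% of all sgRNAs (27.8% higher). Only 5 were among the 9 called above, namely Foxi1 sg-1 (0.25), Defb1 sg-1 (0.21), Kcnip1 sg-1 (0.17), Sycp2 sg-2 (0.16) and Sycp2 sg-3 (0.16). The others were Foxi1 sg-3 (0.18), Mag sg-1 (0.15), Kcnip1 sg-3 (0.13) and Hoxa3 sg-3 (0.12). Of the 24 non-targeting sgRNAs, 4 passed with this scaling as well, all higher. Hoxa3 sg-1 stood at −0.073 (adjusted p = 0.0553 by edgeR) on this scale, S100a7a sg-1 at −0.046, Jph3 sg-3 at −0.038 and Foxi1 sg-2 at −0.036. The non-targeting sum that sets this scale itself fell by 0.052 on the log2 scale (SE 0.012, adjusted p = 0.00471 in edgeR's test of summed counts) with no overlap between arms. In each library the mean level of the 24 sgRNAs minus that of the non-targeting ones was −0.37, −0.33, −0.38 and −0.34 in ITPK1-WT cells of vehicle mice and −0.29, −0.32, −0.26 and −0.24 in IgA mice. These arms did not overlap, whereas the median level minus the non-targeting median was −0.417 ± 0.0237 in vehicle and −0.418 ± 0.0350 in IgA mice (SD, n = 4). Mean and median thus differed in what they showed. The same mean of the 204 other sgRNAs went from −0.761 ± 0.00757 in vehicle to −0.697 ± 0.0221 in IgA mice, beside −0.355 ± 0.0191 and −0.278 ± 0.0352 for the 24 (SD, n = 4), so the shift against the non-targeting mean was not particular to the 24. The SD across the 24 sgRNA levels was 0.571 in vehicle and 0.514 in IgA mice.

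The sgRNAs that rose were scarcer at the start than those that fell. The 5 sgRNAs that rose had starting levels from −1.26 to −0.54, and the 4 that fell had levels from −0.34 to 0.25. Over the 24, the starting level and the IgA change in ITPK1-WT cells had r = −0.713 (Spearman's rho −0.776), against r = 0.0591 (rho −0.230) for the 24 non-targeting and r = −0.326 (rho −0.256) for the 204 other sgRNAs. In ITPK1-KO cells the values were −0.465 (rho −0.500), 0.289 (rho −0.353) and 0.0605 (rho −0.112). These are descriptions over sgRNAs that share libraries and, by gene, targets. The starting library is not part of the IgA comparison, but it shares a sample sheet with IgA mice 6 to 8, and the part of the sheet was not tested.

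In ITPK1-KO cells fewer sgRNAs passed. Of the 24, 5 did, 3 higher and 2 lower, against 10.4% of all 251 sgRNAs tested (5.58% higher and 4.78% lower) and 1 of the 24 non-targeting ones (edgeR's quasi-likelihood test). The median log2 fold change was 0.023 for the 24, −0.012 for the non-targeting sgRNAs and 0.0055 for the others. With libraries scaled within this background, the arms did not overlap for 5 of the 24, against 10.8% of all sgRNAs. Sycp2 sg-2 changed most. It had 3553, 3253, 3230 and 3372 CPM in vehicle mice and 3809, 3867, 3748 and 3888 CPM in IgA mice. The arms were well apart, and the log2 fold change was 0.19 (SE 0.033, adjusted p = 1.86e-05 by edgeR), which held whichever mouse was left out.

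Foxi1 sg-1 had 2966, 2797, 2967 and 3074 CPM in vehicle mice and 3111, 3158, 3225 and 3462 CPM in IgA mice, without overlap. Its log2 fold change was 0.13 (SE 0.044, adjusted p = 0.0220 by edgeR). Kcnip1 sg-1 went from 3397, 3078, 3108 and 3324 CPM to 3343, 3482, 3474 and 3728 CPM, with a log2 fold change of 0.12 (SE 0.048, adjusted p = 0.0383 by edgeR) and mouse 5 within the vehicle range. A pair of Hoxa3 sgRNAs passed as lower, while Hoxa3 sg-3 had the other sign (0.025) and did not pass. More than 1 sgRNA was called in the same direction for 1 of the 8 genes and for 5 of 67 others. Hoxa3 sg-1 went from 5897, 5574, 5924 and 5693 CPM to 5499, 5581, 5315 and 5132 CPM, with a log2 fold change of −0.095 (SE 0.034, adjusted p = 0.0220 by edgeR). Hoxa3 sg-2 went from 5740, 5578, 5729 and 5881 CPM to 5455, 5326, 5543 and 5112 CPM, with a log2 fold change of −0.095 (SE 0.030, adjusted p = 0.0220 by edgeR). The arms of sg-2 did not overlap, and mouse 6 and vehicle mouse 2 met in sg-1. Without mouse 8, Sycp2 sg-2 was the 1 call left of the 5, against 8.37% of all sgRNAs in that fit. Without mouse 2 or 3 there were 3, against 8.37% and 7.57%. Foxi1 sg-1 lost its call without mouse 2 or 8 (adjusted p up to 0.191), Hoxa3 sg-1 without 1, 3 or 8 and Hoxa3 sg-2 without 4, 6 or 8 (both up to 0.183), and Kcnip1 sg-1 without 2, 3, 6, 7 or 8 (up to 0.242), all by edgeR. DESeq2's Wald test did not call Kcnip1 sg-1 here either.

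Scaled to the non-targeting sgRNAs, 4 of the 24 passed in the KO background, all higher, against 9.96% of all sgRNAs (6.77% higher). They were Sycp2 sg-2 (0.21), Foxi1 sg-1 (0.15), Kcnip1 sg-1 (0.13) and Defb1 sg-1 (0.11), and both Hoxa3 sgRNAs had an adjusted p of 0.0734 by edgeR. The summed non-targeting sgRNAs stood at −0.014 in this background (SE 0.0081, adjusted p = 0.256 by edgeR). The mean level of the 24 minus that of the non-targeting sgRNAs was −0.32, −0.34, −0.36 and −0.36 in vehicle mice and −0.31, −0.32, −0.30 and −0.28 in IgA mice, again without overlap. The median level minus the non-targeting median did overlap between arms, at −0.37, −0.38, −0.40 and −0.43 in vehicle mice and −0.40, −0.39, −0.38 and −0.37 in IgA mice. For the 204 other sgRNAs the mean was −0.847 ± 0.0121 in vehicle and −0.832 ± 0.00833 in IgA mice (SD, n = 4), and the difference between the classes was not tested.

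Sequencing sample sheet and treatment overlap in part, since mouse 5 is the IgA mouse on the sheet of the vehicle mice. With the sheet in the model, mouse 5 against the vehicle mice is what remains of the contrast. Then 2 of the 24 passed in ITPK1-WT cells (6.75% of all sgRNAs), of which 1, Foxi1 sg-1 (0.28, adjusted p = 0.0116 by edgeR), was among the 9 above. The other call of that fit was lower in IgA mice and was not among the 9. The log2 fold changes of the calls lost in ITPK1-WT cells kept their sign. Mouse 5 also took part in those calls, so agreement in sign is partly built in. Among them, with and without the sheet, Defb1 sg-1 had 0.15 and 0.16, and Hoxa3 sg-1 had −0.11 and −0.12. Kcnip1 sg-1 had 0.12 in both, and Sycp2 sg-3 had 0.11 in both. Sycp2 sg-2 ran from 0.081 to 0.16 over all alternatives. In ITPK1-KO cells 1 passed, Sycp2 sg-2 (0.18, adjusted p = 0.0391 by edgeR), against 5.98% of all sgRNAs. The 4 lost there kept their sign, with Foxi1 sg-1 at 0.074 against 0.13 and Kcnip1 sg-1 at 0.047 against 0.12. The levels relative to the non-targeting median show the mice side by side. Foxi1 sg-1 in ITPK1-WT cells stood at −1.06 in the vehicle mice, at −0.76 in mouse 5 and at −0.84 in mice 6 to 8. Sycp2 sg-2 in ITPK1-KO cells stood at −0.78, −0.59 and −0.59, and Hoxa3 sg-1 in ITPK1-WT cells at −0.0081, −0.10 and −0.098. In ITPK1-WT cells mouse 5 lay outside the range of the vehicle mice for all 9 called sgRNAs. In ITPK1-KO cells it did so for 4 of the 5, the exception being Kcnip1 sg-1. Mouse 5 helped to make these calls, so its place was partly fixed by how the sgRNAs were picked. In ITPK1-WT cells mouse 5 also lay outside for uncalled sgRNAs: Defb1 sg-2, Hoxa3 sg-3, Kcnip1 sg-2 and sg-3, every Mag sgRNA and Sycp2 sg-1. In ITPK1-KO cells these were Defb1 sg-1 and sg-2, Kcnip1 sg-2, every Mag sgRNA and Sycp2 sg-3. The share over the whole library was not taken, so the calls gain no support from the place of mouse 5. The values are of 1 mouse, with no test.

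The backgrounds were set side by side because the study asked whether ITPK1 alters the effect of IgA. No sgRNA of the 24 passed edgeR's test of the difference between the IgA effects (ITPK1-KO minus ITPK1-WT), where 3.97% of all sgRNAs did. At an unadjusted p under 0.05 by edgeR there were 2, against 29 of all 252 sgRNAs and 2 of the 24 non-targeting ones. DESeq2's Wald test also called none of the 24. The 24 differences ran from −0.077 (Sycp2 sg-1) to 0.12 (Mag sg-3), with SEs from 0.020 to 0.088. Mag sg-3 had 4307, 4300, 4155 and 4310 CPM in ITPK1-WT cells of vehicle mice and 3731, 4101, 4184 and 4120 CPM in IgA mice. In ITPK1-KO cells it had 4256, 4320, 3993 and 4463 CPM and 4459, 4294, 4419 and 4369 CPM. The difference of its effects had an adjusted p of 0.250 by edgeR. Sycp2 sg-1 had 3224, 3344, 3058 and 3264 CPM in ITPK1-WT cells of vehicle mice and 3443, 3213, 3337 and 3540 CPM in IgA mice. In ITPK1-KO cells it had 3643, 3803, 3855 and 3578 CPM and 3698, 3629, 3633 and 3767 CPM, and its difference had an adjusted p of 0.718 by edgeR. Without mouse 6, 1 of the 24 passed, against 6.75% of all sgRNAs. The test had limited reach, since edgeR found 21.7% of simulated log2 differences of 0.1 and 80% of those of 0.2.

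The IgA changes in ITPK1-WT and ITPK1-KO cells come from different libraries of the same mice. Of the calls, 4 were shared and in the same direction: Foxi1 sg-1, Kcnip1 sg-1 and Sycp2 sg-2 higher, and Hoxa3 sg-1 lower. The IgA changes of the 24 had the same sign in 18 cases, and their r across sgRNAs was 0.764 (rho 0.787). For the non-targeting sgRNAs r was 0.772 (rho 0.565) with 22 of 24 of the same sign, and for 203 others it was 0.429 (rho 0.602) with 154 of the same sign. By r the non-targeting sgRNAs were close to the 24, while by rho they were lower. These are descriptions across sgRNAs, with mouse, sheet and number of cells sorted shared by both libraries of a mouse.

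At the level of genes, counts were summed over the 3 sgRNAs and tested with edgeR over 76 genes and the non-targeting sum. In ITPK1-WT cells 3 of the 8 genes passed, 2 higher and 1 lower, against 39.0% of all 77 features (20.8% higher and 18.2% lower). Sycp2 went from 10950, 11480, 10630 and 11260 summed CPM to 11900, 11060, 12130 and 12540 CPM, with a log2 fold change of 0.095 (SE 0.045, adjusted p = 0.0160). Kcnip1 went from 11250, 11350, 11220 and 11460 CPM to 11810, 11420, 12190 and 12350 CPM, with a log2 fold change of 0.071 (SE 0.026, adjusted p = 0.0171). Jph3 went from 16430, 16790, 16720 and 16730 CPM to 16510, 16110, 16000 and 16230 CPM, with a log2 fold change of −0.044 (SE 0.012, adjusted p = 0.0293). In each of these genes the 3 sgRNAs had the same sign, which held for 3 of the 8 genes and for 31 of the other 68. The remaining 5 genes lay between −0.033 (S100a7a) and 0.040 (Foxi1). Without mouse 7 none of the 8 passed, against 23.4% of all features in that fit, and without mouse 8 Jph3 alone did, against 28.6%. Jph3 lost its call without mouse 2, 3, 4 or 6 as well (adjusted p up to 0.0997 by edgeR), so that it held in 3 of the 8 fits that left out a mouse, whereas Sycp2 and Kcnip1 held in 6. Jph3 also lost its call with DESeq2's size factors, and Jph3 and Sycp2 lost theirs in limma on mean log2 values. Relative to the non-targeting sum, 4 of the 8 rose, against 44.7% of all genes. These were Sycp2 (0.15), Kcnip1 (0.12), Foxi1 (0.092) and Defb1 (0.074), while Jph3 stood at 0.0079 (adjusted p = 0.749 by edgeR), so its direction depends on the scaling.

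In ITPK1-KO cells 3 of the 8 genes passed as well, 2 higher and 1 lower, against 7.79% higher and 5.19% lower of all 77 features. Sycp2 went from 11910, 11610, 11490 and 11580 summed CPM to 12350, 12510, 11960 and 12480 CPM (log2 fold change 0.084, SE 0.018, adjusted p = 0.00382 by edgeR), without overlap. Kcnip1 went from 11120, 10970, 11100 and 10920 CPM to 11470, 11420, 11470 and 11920 CPM (0.072, SE 0.015, adjusted p = 0.0124 by edgeR), also without overlap. Hoxa3 went from 16210, 15550, 16220 and 15860 CPM to 15170, 15590, 15310 and 14960 CPM (−0.061, SE 0.019, adjusted p = 0.0173 by edgeR), and its arms overlapped. In limma on mean log2 values Hoxa3 did not pass. Without mouse 8 only Sycp2 passed, against 9.09% of all features in that fit. Kcnip1 also lost its call without mouse 4 (adjusted p = 0.0593 by edgeR) and Hoxa3 without mouse 3 (0.0704), while Sycp2 kept its call in all 8 fits that left out a mouse. Relative to the non-targeting sum, Sycp2 (0.098) and Kcnip1 (0.086) rose, 2 of the 8 against 14.5% of all genes, and Hoxa3 stood at −0.047. None of the 8 passed edgeR's test of the difference between backgrounds, where 6.49% of the features did. None of the 8 had an unadjusted p under 0.05 there, against 9 of the 77 features. Their differences ran from −0.035 (Hoxa3) to 0.041 (Jph3).

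Without antibody, ITPK1-KO and ITPK1-WT cells differed in 4 of the 24 sgRNAs (edgeR, adjusted p under 0.05), 3 higher and 1 lower, against 31.7% of all 252 sgRNAs (13.9% higher and 17.9% lower), 2 of the 24 non-targeting sgRNAs and 74 of the 204 others. The 24 ranged from −0.15 to 0.20 (SD 0.083 across sgRNAs), wider than the 24 non-targeting sgRNAs, from −0.11 to 0.11 (SD 0.047). The 204 sgRNAs against other genes ranged from −3.99 to 2.50 (SD 0.56). Sycp2 sg-1 was higher in ITPK1-KO cells in all 4 vehicle mice, with the CPM given above (log2 fold change 0.20, SE 0.044, adjusted p = 1.44e-05 by edgeR). S100a7a was called in both directions. S100a7a sg-3 had 3020, 3418, 3102 and 3206 CPM in ITPK1-WT cells and 3405, 3566, 3686 and 3547 CPM in ITPK1-KO cells of the same mice (0.15, SE 0.039, adjusted p = 0.00161 by edgeR). S100a7a sg-1 had 7162, 6533, 6874 and 6930 CPM in ITPK1-WT cells and 6342, 6251, 5858 and 6216 CPM in ITPK1-KO cells (−0.15, SE 0.035, adjusted p = 8.87e-06 by edgeR). Defb1 sg-1 had 3912, 3823, 3871 and 3782 CPM in ITPK1-KO cells, above the ITPK1-WT values given above in every mouse (0.13, SE 0.012, adjusted p = 0.00472 by edgeR). These 4 calls held in all fits that left out a mouse. The SEs here come from differences within mice, whereas edgeR's test did not pair the libraries.

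Differences of the same sign were present before injection. Relative to the non-targeting median, the KO minus WT difference at the start and then in vehicle mice was 0.098 and 0.22 for Sycp2 sg-1, 0.31 and 0.17 for S100a7a sg-3, −0.12 and −0.14 for S100a7a sg-1, and 0.28 and 0.14 for Defb1 sg-1. Before injection, 23 of the 24 had a positive difference with a median of 0.11, but the non-targeting sgRNAs themselves had a median difference of 0.090, with 17 of 24 positive. In IgA mice 3 of the 24 passed between backgrounds, against 34.9% of all sgRNAs (16.7% higher and 18.3% lower) and 5 of the 24 non-targeting ones. They were Sycp2 sg-1 (0.13, SE 0.019, adjusted p = 0.00825 by edgeR), Mag sg-3 (0.12, SE 0.045, adjusted p = 0.00430) and S100a7a sg-3 (0.11, SE 0.042, adjusted p = 0.0216), all higher in ITPK1-KO cells, and S100a7a sg-3 had 3163, 3427, 3289 and 3156 CPM in ITPK1-WT and 3612, 3433, 3560 and 3540 CPM in ITPK1-KO cells. Without mouse 5, 1 of the 24 passed against 27% of all sgRNAs in that fit, and without mouse 6, 5 did against 32.5%. Mag sg-3 lost its call without mouse 5 (adjusted p = 0.134), Sycp2 sg-1 without mouse 6 (0.0654), and S100a7a sg-3 without mouse 5, 7 or 8 (up to 0.144). Scaled to the non-targeting sgRNAs none of these 3 passed, and 5 others did: Kcnip1 sg-1 (−0.12), Hoxa3 sg-3 (−0.11), Hoxa3 sg-2 (−0.094), Jph3 sg-1 (−0.087) and S100a7a sg-1 (−0.082), against 32.1% of all sgRNAs.

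Over the 16 h in vehicle mice the 24 sgRNAs stayed near their starting level in ITPK1-WT cells. The median change relative to the non-targeting median was 0.0036 ± 0.028 (SD over 4 mice), with 12 up and 12 down and a range from −0.15 to 0.20, the highest being Foxi1 sg-1. In IgA mice the median change was 0.055 ± 0.052, with 16 up, and Foxi1 sg-1 stood at 0.44 ± 0.12 above its start. The 204 other sgRNAs had a median of 0.046 ± 0.037 there, with 125 up, so the shift was not particular to the 24. In ITPK1-KO cells all 24 changes were negative in vehicle mice (median −0.082 ± 0.037), but 20 of the 24 non-targeting sgRNAs had negative changes too (median −0.058 ± 0.020). Of the 204 other sgRNAs, 182 were down in these vehicle libraries (median −0.073 ± 0.028). In IgA mice the median of the 24 was −0.052 ± 0.022 with 20 down. There 19 of the 24 non-targeting and 164 of the 204 other sgRNAs were down as well. With the summed non-targeting reads as reference the medians of the 24 in ITPK1-KO cells were −0.030 (vehicle) and 0.013 (IgA). Their size and, in IgA mice, their direction thus depend on the reference. Each change rests on a single starting library per background, and in vehicle mice it cannot be told apart from the sample sheet.

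Taking the 5 comparisons between recovered cells together, 13 of the 24 sgRNAs were called at least once and 11 never. The share of 54.2% lies beside 50% (12 of 24) for the non-targeting sgRNAs and 56.9% (116 of 204) for the sgRNAs against the other genes. Within genes, the SD over the 3 sgRNAs of the IgA change in ITPK1-WT cells had a median of 0.082 over the 8 genes and 0.053 over the 68 others, and it was 0.058 and 0.046 in ITPK1-KO cells. For the difference of IgA effects the medians were 0.062 and 0.049. Between backgrounds they were 0.065 and 0.063 in vehicle mice, and 0.042 and 0.065 in IgA mice, so the order varied with the comparison. All 3 sgRNAs passed for 0 of the 8 genes in either IgA comparison. This held for 4 of 68 other genes in ITPK1-WT cells and for 3 of 67 in ITPK1-KO cells. With 8 genes, a count of 0 lies near those shares. In the authors' deposited table, none of the 24 sgRNAs had an FDR under 0.05 in ITPK1-WT cells (lowest FDR 0.998), nor did any other sgRNA. In the authors' deposited table for ITPK1-KO cells 1 of the 24 did, Sycp2 sg-2, with a log2 fold change of 0.23 and an FDR of 0.0116, beside none of the non-targeting sgRNAs and 11 of the others.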

How the data were processed

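Per the labels' protocols and the series' design text, sgRNA cassettes were amplified from genomic DNA, sequenced, matched to the library without mismatches and scored by the authors with MAGeCK RRA 0.5.6. No aligner is named in the sources used here. The deposited count table holds raw counts (whole reads) per sgRNA. For each background the authors also deposited, per sgRNA, p-value, FDR and log2 fold change of treated over vehicle mice. A legend deposited by the authors gives the arm and the number of cells sorted (another unit, cells). Another 4 deposited columns of joined per-sample values were not used.

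Counts were tested in R 4.3.3 with edgeR 4.0.16 (glmQLFit, glmQLFTest, TMM scaling, a mean of at least 10 reads, Benjamini-Hochberg adjustment over all sgRNAs, threshold 0.05). Each background was fitted apart for the IgA effect, and all 16 recovered libraries together for differences between backgrounds. Each SE was taken from the log2 CPM of the mice and not from edgeR. Between backgrounds, and for the difference of IgA effects, it rests on the ITPK1-KO minus ITPK1-WT difference within each mouse. The p-values there come from a fit that does not pair libraries by mouse, so SE and p rest on different models. Gene tests used summed counts with the sgRNA scaling. A level is the log2 share (0.5 reads added) relative to the non-targeting median in the same library. Alternatives were DESeq2 1.42.0, limma 3.58.1 on gene means, other scalings and filters, sample sheet, mouse block and leaving out each mouse.

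In 10 simulated data sets per comparison, edgeR recovered 46.3% of sgRNAs changed by 0.1 on the log2 scale and 92.3% of those changed by 0.2 for the IgA effect in ITPK1-WT cells (252 sgRNAs), and 52.7% and 91.3% in ITPK1-KO cells (251 sgRNAs). For the difference of IgA effects the shares were 21.7% and 80% (252 sgRNAs). The biological coefficient of variation was 3.17% and 2.83% in the WT and KO fits.

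Both libraries of a mouse come from the same animal, so mouse numbers pair them. Over 238 sgRNAs, deviations from the group means correlated between −0.084 and 0.26 within mice. The members and lists were chosen with earlier results of these data known. Values per mouse are given for member sgRNAs past the threshold in a comparison, else for its highest and lowest member, and the others by range and count.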

Additional observations from a re-analysis of the deposited data

Results flagged for a closer look

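A library was set against the other 3 of its group (background and arm) by the gap to its nearest neighbour divided by the range of the group against Dixon's 95% critical value. Over 140 groups of 4 mice (the 24 sgRNAs, the 8 gene sums, the non-targeting sum and the median and mean level, each in 4 groups), 10 values stood apart, and chance alone marks about 5% of groups.

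In ITPK1-WT cells of vehicle mice, Jph3 sg-2 had 5687 CPM in mouse 2 against 5432 to 5474 in the others, and Mag sg-3 had 4155 CPM in mouse 3 against 4300 to 4310. In ITPK1-WT cells of IgA mice, Defb1 sg-2 had 4352 CPM in mouse 6 against 4072 to 4118, S100a7a sg-1 had 6056 CPM in mouse 8 against 6525 to 6589, and summed Hoxa3 had 15290 CPM in mouse 7 against 15710 to 15790. In ITPK1-KO cells, Mag sg-1 had 1971 CPM in vehicle mouse 1 against 2139 to 2161. In ITPK1-KO cells of IgA mice, Defb1 sg-1 had 3966 CPM in mouse 6 against 4141 to 4177, Jph3 sg-1 had 5675 CPM in mouse 6 against 5771 to 5788, S100a7a sg-2 had 6059 CPM in mouse 7 against 5604 to 5670, and summed Kcnip1 had 11920 CPM in mouse 8 against 11420 to 11470. Of these, S100a7a sg-1 in ITPK1-WT cells and summed Kcnip1 in ITPK1-KO cells belong to calls that were lost without mouse 8.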

How the results depend on the processing

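Counts are of the 24 sgRNAs or 8 genes past an adjusted p of 0.05 in edgeR. With 1 mouse left out, they ran from 3 to 11 for the IgA effect in ITPK1-WT cells (9 with all mice), from 1 to 5 in ITPK1-KO cells (5), from 0 to 1 for the difference of effects (0), from 4 to 5 (4) and from 1 to 5 (3) between backgrounds in vehicle and IgA mice, and for gene sums from 0 to 3 in ITPK1-WT cells (3) and from 1 to 3 in ITPK1-KO cells (3), with 0 throughout for their difference. With the sample sheet as a covariate the IgA counts were 2 (WT) and 1 (KO), since only mouse 5 then carries the effect. Scaled to the 24 member sgRNAs, an alternative chosen after seeing the data, 3 passed for the IgA effect (KO); the cause was not tested. With non-targeting scaling, 5 passed between backgrounds in IgA mice, none of them among the 3, and summed Jph3 in ITPK1-WT cells changed sign to 0.0079. DESeq2's size factors and Wald test, total counts, robust dispersion, the joint fit, both filters and limma on gene means kept each count they were run for within 1.5 times. With the mouse as a replicate block, 6 passed between backgrounds in vehicle mice against 4, 3 in IgA mice against 3, and 0 for both differences of effects. The 4 and the 3 named sgRNAs kept their calls, 2 were added in vehicle mice, and these were the comparisons run with a block. The IgA effects within a background could not be fitted with one, since each mouse has 1 library there. Each of the 24 sgRNAs had at least 450 reads in every library, and each arm had 4 mice.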
